A study of Macaca mulatta with 17 samples.

Results

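Retinoic acid is made from vitamin A inside cells and acts on genes through nuclear receptors. Retinol is oxidised first to retinaldehyde and then, by the retinaldehyde dehydrogenases ALDH1A1, ALDH1A2 and ALDH1A3, to retinoic acid. The cytochrome P450 enzymes CYP26A1 and CYP26B1 break it down, the small cytoplasmic proteins CRABP1 and CRABP2 bind it, and the receptors RARA and RARB respond to it. In the developing female reproductive tract retinoic acid is known to favour the simple columnar epithelium of the uterus over the squamous epithelium found further down the tract. These 9 genes were taken as a list, chosen by name from 17190 gene names on the array, and each had 1 probe.

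RNA from the uterus of 17 female rhesus macaque fetuses was measured, each on its own array. The dams ate a daily fruit treat with vehicle (ethanol) or with deuterated bisphenol A (BPA) at 400 µg per kg per day, so the controls received the treat and ethanol too. The GD100 fetuses (5 control, 5 BPA-exposed) were treated from gestational day 50 and delivered by caesarean section on gestational day 100. The GD165 fetuses (4 control, 3 BPA-exposed) were treated from gestational day 100 and delivered vaginally at about gestational day 165, and stillborn fetuses were not measured. Per the paper, fetuses were killed at once on delivery and newborns within a day of it. Age, route of delivery, the days of treatment and any time from birth to collection therefore cannot be told apart. Each RNA came from the frozen part of a uterus cut lengthwise from fundus to cervix, so that all layers and cell types contributed. In such tissue fewer cells of a type and less RNA per cell cannot be told apart.

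A level is the log2 processed signal of a probe, scaled so that the 75th percentile of every array falls at 12.62. Levels were compared for the same probe between arrays, never between probes. Differences were tested with limma over all 20217 probes in 1 fit of the 17 arrays, two-sided, and a probe passed at a Benjamini-Hochberg adjusted p under 0.01. The share of spots well above background ran from 83.8 to 89.0% over the arrays. All 9 genes were well above background on all 17 arrays, and none was saturated (0 of 9). Of 7 markers of the uterus and its Müllerian origin, 6 were well above background on every array.

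Some arrays differed in markers of other tissues. A marker score is the mean, over a cell type's listed genes, of the log2 level minus its mean over the 17 arrays. The skeletal muscle score was 6.32 in GD165 control replicate 5 and 5.52 in GD165 BPA replicate 5, against -2.63 to -1.64 in GD100 controls. Among GD100 BPA-exposed uteri it was 1.06 in replicate 1 and -2.37 to -1.66 in the others. The squamous epithelium score was 2.97 in GD165 control replicate 6 and 0.42 or lower on all other arrays.

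The following are the last 30 bases, as the array file gives them, of the probes for the genes on which the results turn, with RARA as the gene whose level varied least. Capitals mark the polyadenylation hexamer AATAAA where the 30 bases contain it.
CRABP1: cctaatgctccatagtttggcatttgcatg
CRABP2: tggcttctacactttgtccctgtagcctat
ALDH1A1: aatttcctaggatgtcagtctgcttgtcaa
RARB: tgtttacctttttccatggagtctcctggc
RARA: cactgagatctactggataaagAATAAAgt

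AATAAA or the hexamer ATTAAA, searched on the probe strand only, was in the last 30 bases of 4 of the 9 probes. These were ALDH1A3, CYP26A1, CYP26B1 and RARA, each with AATAAA. Of all 20217 probes 2818, or 13.9%, had either hexamer there. The array file names the genome build of a macaque, but its coordinates could not be tied to that build, so no positions are given.

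CRABP2, a retinoic acid binding protein, was lower at GD165 than at GD100 in control and in BPA-exposed uteri. The mean of its relative CRABP1 was lower in both as well, by log2 differences of -1.33 and -1.59. Only the latter, in BPA-exposed uteri, passed the test. The difference between these age effects of CRABP1 was -0.27 (95% interval -1.38 to 0.84) and did not pass (limma adjusted p = 0.94). In controls 1 of the 9 genes passed the test of age, CRABP2, and it was lower, while 11.5% of all probes passed. In BPA-exposed uteri 2 of 9 passed, CRABP1 and CRABP2, both lower, against 9.68% of all probes. The median log2 difference of the 9 genes was -0.38 in controls and -0.07 in BPA-exposed uteri, and over all probes it was 0.0 and -0.05. At an adjusted p under 0.05 there were 4 of 9 in controls (21.2% of all probes) and 3 of 9 in BPA-exposed uteri (21.0%), and at an unadjusted p under 0.05 there were 5 of 9 (33.1%) and 3 of 9 (34.5%). In each of these comparisons the levels at the 2 ages did not overlap in 3 of the 9 genes, CRABP1, CRABP2 and ALDH1A1. Over all probes the share without overlap was 19.4% in controls and 27.2% in BPA-exposed uteri.

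**Figure D1:**
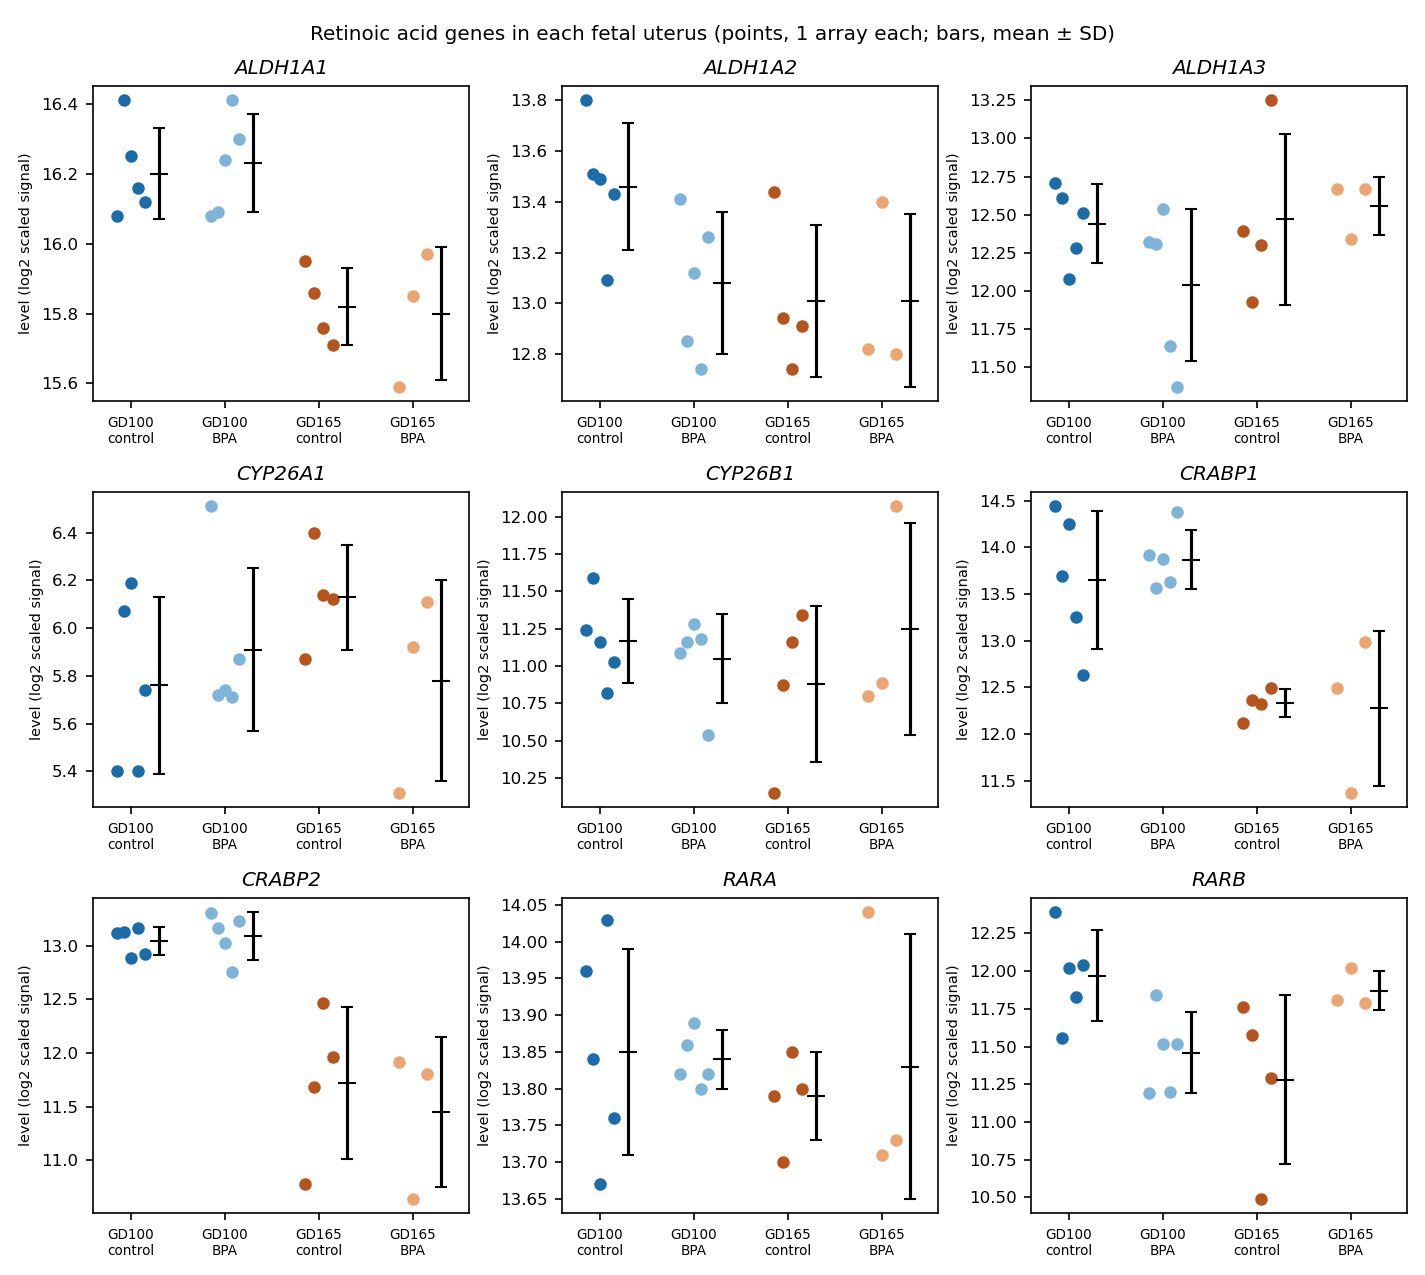
Level of each of the 9 genes (vertical axis, log2 scaled signal, a different range in each panel) in the 4 groups. Each point is 1 fetus and the bars show the mean ± SD; for CRABP2 all 10 GD100 uteri lie at 12.75 or above and all 7 GD165 uteri at 12.47 or below.

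CRABP2 carries retinoic acid to its nuclear receptors. At GD100 its level was tightly held, at 13.12, 13.13, 12.88, 13.16 and 12.92 in the controls and 13.3, 13.16, 13.02, 12.75 and 13.23 in the BPA-exposed uteri. At GD165 it was 10.78, 11.68, 12.47 and 11.96 in control replicates 1, 3, 5 and 6, and 11.92, 10.64 and 11.8 in BPA replicates 3, 4 and 5. Every GD165 uterus was below every GD100 uterus, and the SD widened from 0.13 (n = 5) to 0.71 (n = 4) in controls. The fall was 2.5-fold in controls (log2 difference -1.32, SE 0.29, limma adjusted p = 0.00465) and 3.11-fold in BPA-exposed uteri (-1.64, SE 0.32, adjusted p = 0.00249).

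The call in controls was close to the threshold. It was lost without GD100 control replicate 1 (adjusted p = 0.0111), replicate 2 (0.0106) or replicate 4 (0.0119), and without GD165 control replicate 1 (log2 difference -1.01, adjusted p = 0.0133) or replicate 3 (adjusted p = 0.0125). In BPA-exposed uteri it was lost without GD165 replicate 4 (-1.23, adjusted p = 0.0169). Within single slides, the glass supports that hold several arrays, CRABP2 was lower at GD165 in each of the 3 possible comparisons of the ages, by log2 differences of -1.21 and -2.13 in controls and -1.43 in BPA-exposed uteri. With slide as a fixed block the limma adjusted p was 0.0107 in controls and 0.0431 in BPA-exposed uteri.

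CRABP1 also binds retinoic acid and is associated with its breakdown. At GD100 its levels were 14.44, 13.69, 14.25, 13.25 and 12.63 in controls and 13.92, 13.56, 13.88, 13.63 and 14.38 in BPA-exposed uteri. At GD165 they were 12.12, 12.37, 12.32 and 12.49 in control replicates 1, 3, 5 and 6, and 12.49, 11.37 and 12.99 in BPA replicates 3, 4 and 5. Here the controls spread widely at GD100 (SD 0.74, n = 5) and little at GD165 (SD 0.15, n = 4), and GD100 control replicate 5 lay only just above the highest GD165 control. The log2 difference was -1.33 in controls (SE 0.35, 95% interval -2.08 to -0.58, limma adjusted p = 0.014), which did not pass. In BPA-exposed uteri it was -1.59 (SE 0.38, adjusted p = 0.00908), a 3.02-fold fall.

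That call in BPA-exposed uteri passed in 4 of 17 fits that each left out 1 array, namely without GD100 control replicate 1, 3 or 5 or GD165 BPA replicate 5. The adjusted p was highest, 0.0628, without GD165 BPA replicate 4, where the log2 difference was -1.14. It was 0.112 (log2 difference -1.15) with slide as a fixed block. In controls the log2 difference was -1.58 and passed (adjusted p = 0.00343) without GD100 control replicate 5, and it passed (0.00688) without GD165 BPA replicate 4.

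ALDH1A1, a retinaldehyde dehydrogenase, showed a small and even difference. Its GD100 levels ran from 16.08 to 16.41 in both groups, with medians of 16.16 in controls and 16.24 in BPA-exposed uteri. At GD165 they were 15.95, 15.86, 15.76 and 15.71 in the controls and 15.59, 15.85 and 15.97 in the BPA-exposed uteri. No GD165 uterus reached the lowest GD100 uterus. The log2 difference was -0.38 in controls (95% interval -0.6 to -0.17, limma adjusted p = 0.0131) and -0.42 in BPA-exposed uteri (-0.66 to -0.19, adjusted p = 0.0142), and neither passed. In controls it passed (adjusted p = 0.00876) without GD165 BPA replicate 3, which changes only the shared estimate of the spread. Of 12 other settings it passed in 3 in controls (lowest adjusted p = 0.00619) and in 3 in BPA-exposed uteri (lowest 0.00696).

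Since the 2 age comparisons share no arrays, their mean was also tested, a choice made after the values were seen. In this average over both treatments 3 of the 9 genes passed, all lower at GD165, against 22.4% of all probes. The averaged log2 difference was -1.48 for CRABP2 (SE 0.22, limma adjusted p = 9.27e-05), -1.46 for CRABP1 (SE 0.26, adjusted p = 0.000505) and -0.4 for ALDH1A1 (SE 0.07, adjusted p = 0.000677). All 3 passed in each of 17 fits without 1 array. CRABP2 passed in all of 11 other settings as well. CRABP1 did not pass with slide as a fixed block (adjusted p = 0.0143), and ALDH1A1 did not pass with slide as a fixed block, with the replicate block or without scaling (adjusted p of at most 0.0222).

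The other dehydrogenases were less uniform. ALDH1A2, the main retinoic acid source of many embryonic tissues, had a mean level of 13.46 ± 0.25 (SD, n = 5) in GD100 controls, 13.08 ± 0.28 (SD, n = 5) in GD100 BPA-exposed uteri, 13.01 ± 0.3 (SD, n = 4) in controls at GD165 and 13.01 ± 0.34 (SD, n = 3) in BPA-exposed uteri at GD165. Neighbouring groups in this order overlapped. The log2 difference with age was -0.46 in controls (95% interval -0.85 to -0.06, limma adjusted p = 0.0955) and -0.07 in BPA-exposed uteri (-0.5 to 0.36, adjusted p = 0.839).

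ALDH1A3, which makes retinoic acid in several epithelia, had group means from 12.04 in GD100 BPA-exposed to 12.56 in GD165 BPA-exposed uteri, and the groups overlapped. Its highest level, 13.25, was in GD165 control replicate 6, the array with the high squamous epithelium score. The part of those cells in this level was not tested. The log2 difference with age was 0.03 in controls (95% interval -0.53 to 0.6) and 0.53 in BPA-exposed uteri (-0.09 to 1.14).

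The 2 breakdown enzymes showed no difference with age that passed. CYP26A1, strongly induced by retinoic acid in many tissues, was at levels of 5.31 to 6.51 over the 17 arrays, and its log2 difference was 0.37 in controls (95% interval -0.09 to 0.84) and -0.13 in BPA-exposed uteri (-0.63 to 0.38). CYP26B1, which shields embryonic tissues from retinoic acid, ran from 10.15 in GD165 control replicate 1 to 12.07 in GD165 BPA replicate 5. Its log2 difference was -0.28 in controls (-0.88 to 0.31) and 0.2 in BPA-exposed uteri (-0.44 to 0.85). In each of these enzymes all 4 groups overlapped their neighbours in the order of means.

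Of the receptors, RARA, expressed in most tissues, was the steadiest of the 9 genes, with all 17 levels within 0.37 log2 units of each other. Its log2 difference with age was -0.07 in controls (95% interval -0.25 to 0.12) and -0.01 in BPA-exposed uteri (-0.21 to 0.19). RARB, itself a well known target of retinoic acid, was at 12.39, 11.56, 12.02, 11.83 and 12.04 in GD100 controls and at 11.76, 11.58, 10.49 and 11.29 in GD165 control replicates 1, 3, 5 and 6. The log2 difference with age in controls was -0.69 (-1.17 to -0.2, limma adjusted p = 0.0421). Without GD165 control replicate 5, which held both the lowest RARB level and the highest skeletal muscle score, it was -0.42 (adjusted p = 0.122). In BPA-exposed uteri it was 0.42 (-0.11 to 0.94, adjusted p = 0.247). GD165 BPA replicate 5, with a skeletal muscle score of 5.52, had a RARB level of 11.79. The part of skeletal muscle in these RARB levels was not tested.

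**Figure D2:**
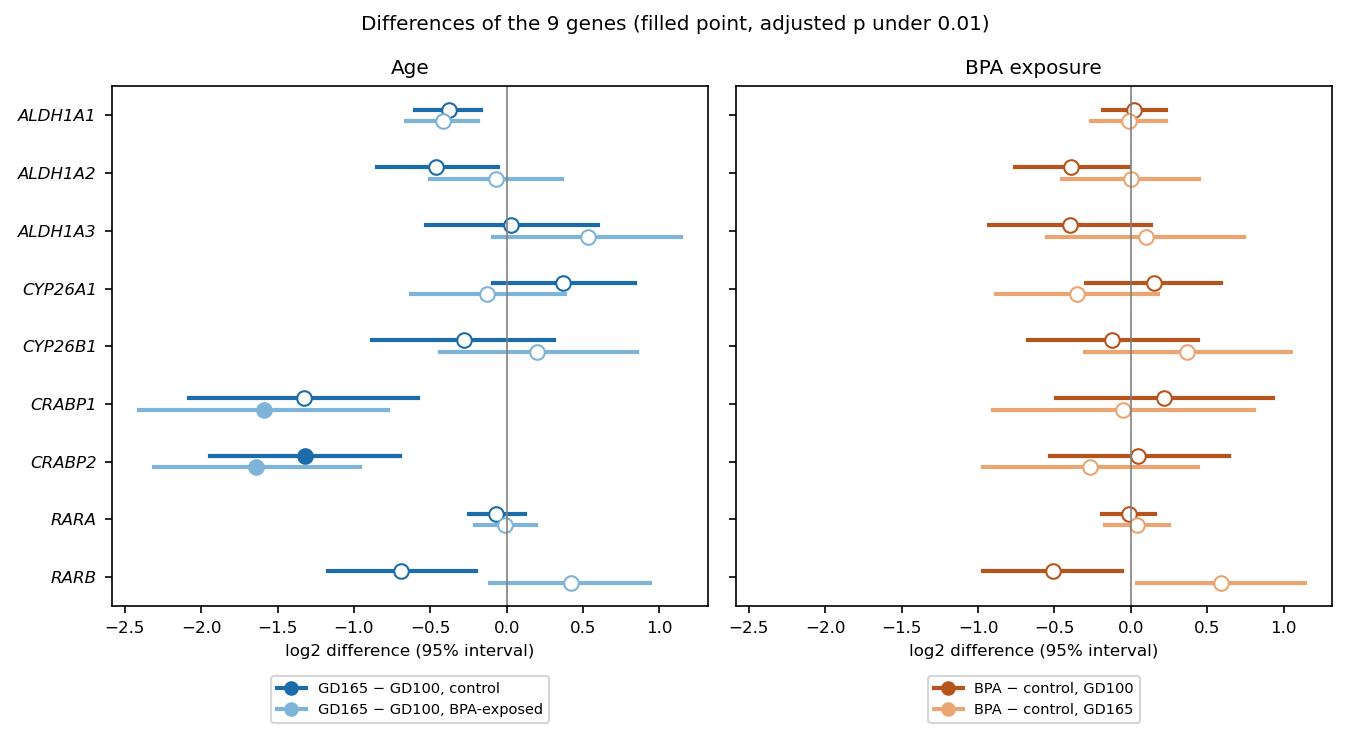
Log2 difference of each of the 9 genes (horizontal axis; points, with 95% intervals from limma as lines) between ages (left) and between BPA-exposed and control uteri (right). Filled points passed an adjusted p of 0.01: CRABP2 in both age comparisons and CRABP1 in BPA-exposed uteri, while none of the 9 passed for BPA.

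In limma's test none of the 9 genes passed for BPA exposure at either age (0 of 9 at GD100 and 0 of 9 at GD165). Of all probes 0.0% were called at each age in this test. At an unadjusted p under 0.05 there were 2 of 9 at GD100, ALDH1A2 and RARB, where 3.79% of all probes had such a p, and 1 of 9 at GD165, RARB, where 8.61% had. The median log2 difference of the 9 genes was -0.01 at GD100, against 0.01 over all probes, and -0.0 at GD165, against -0.02. By another test at the same threshold, the paper reported few genes differing with BPA at GD100 and more differing probes at GD165. For the GD165 genes it checked by real-time RT-PCR, the fold changes had the same direction as on its arrays. The paper's test was not repeated, so the 0.0% does not show that these arrays hold no BPA difference.

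Among the 9 genes RARB had the largest log2 difference by exposure at each age. The GD100 BPA-exposed uteri had levels of 11.19, 11.84, 11.52, 11.2 and 11.52, and 4 of these 5 were below the lowest of the GD100 controls, 11.56. At GD165 the BPA-exposed uteri had 11.81, 12.02 and 11.79, all above the highest GD165 control at 11.76, though closely. The groups did not overlap in 1 of the 9 genes at GD165 (7.31% of all probes) and in 0 of 9 at GD100 (0.782%).

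The log2 difference of RARB between BPA-exposed and control uteri was -0.51 at GD100 (95% interval -0.97 to -0.06, limma adjusted p = 1.0) and 0.59 at GD165 (0.04 to 1.14, adjusted p = 0.554). Exact permutation tests of these levels over samples (two-sided, the smaller tail doubled) gave p = 0.0238 at GD100 over 252 regroupings. At GD165 the permutation test gave p = 0.0571 over 35 regroupings, the smallest p that 3 arrays against 4 allow in this form. Permutation was applied only to genes with an unadjusted limma p under 0.05 in the same values. Its p-values were not adjusted for that choice. The test of the difference between the BPA effects on RARB gave 1.1 (0.39 to 1.82), which did not pass (limma adjusted p = 0.52). Of the 9 genes RARB alone had an unadjusted p under 0.05 for this difference, which 7.83% of all probes had. Within slides the value was -0.58, -0.04 and -0.83 at GD100 and 0.15 at GD165. Over 17 fits without 1 array the GD165 value ran from 0.33 to 0.75.

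ALDH1A2 had levels of 13.8, 13.51, 13.49, 13.09 and 13.43 in GD100 controls and 13.41, 12.85, 13.12, 12.74 and 13.26 in GD100 BPA-exposed uteri. The groups overlapped, and the log2 difference was -0.39 (95% interval -0.76 to -0.01, limma adjusted p = 1.0). An exact permutation test of the GD100 values, again not adjusted for the choice of gene, gave p = 0.0635 (two-sided, 252 regroupings). At GD165 it was -0.0 (-0.45 to 0.45).

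For the binding proteins the BPA intervals were wide. The log2 difference at GD165 was -0.05 for CRABP1 (95% interval -0.9 to 0.81) and -0.27 for CRABP2 (-0.97 to 0.44), and at GD100 it was 0.22 (-0.49 to 0.93) and 0.05 (-0.53 to 0.64). The narrowest were those of RARA, -0.01 at GD100 (-0.19 to 0.16) and 0.04 at GD165 (-0.17 to 0.25), and of ALDH1A1, 0.02 (-0.18 to 0.23) and -0.01 (-0.26 to 0.23). CYP26A1 had 0.15 (-0.29 to 0.59) and -0.35 (-0.88 to 0.18), CYP26B1 -0.12 (-0.67 to 0.44) and 0.37 (-0.3 to 1.05), and ALDH1A3 -0.4 (-0.93 to 0.13) and 0.1 (-0.55 to 0.74). Intervals as wide as these do not show that exposed and control uteri were alike.

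A further 46 genes of the retinoid pathway, of 51 listed, had a probe, and 37 of them were well above background on all arrays. In controls 7 of the 46 passed the test of age, 4 higher and 3 lower, when 6.32% of all probes passed as higher and 5.2% as lower. In BPA-exposed uteri 4 of 46 passed, 3 higher (4.82% of all probes) and 1 lower (4.86%). Their median log2 difference was 0.03 and 0.06, against 0.0 and -0.05 over all probes. For BPA 0 of 46 passed at either age in limma's test, with 0 at GD100 (3.79% of all probes) and 3 at GD165 (8.61%) under an unadjusted p of 0.05.

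Of 9 listed genes for retinol uptake, storage and binding, 2 passed as higher and 2 as lower in controls (6.32% and 5.2% of all probes). In BPA-exposed uteri 2 passed as higher and 1 as lower (4.82% and 4.86%). STRA6, the membrane receptor that takes retinol into cells from its plasma carrier, had levels of 13.0, 13.33, 12.7, 13.32 and 12.87 in GD100 controls and 11.17, 11.65, 11.88 and 10.29 in GD165 controls. In BPA-exposed uteri it was at 13.02 to 13.45 at GD100 and at 11.19, 11.22 and 11.27 at GD165. The ages did not overlap in either treatment, and the fall was 3.48-fold in controls (log2 difference -1.8, SE 0.24, limma adjusted p = 0.00014) and 3.84-fold in BPA-exposed uteri (-1.94, SE 0.27, adjusted p = 0.000244). It passed in each of the 17 fits without 1 array and each of 12 other settings, in both comparisons.

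RBP7, a cellular retinol-binding protein, moved the other way. Its mean rose from 12.72 to 13.7 in controls (log2 difference 0.98, limma adjusted p = 0.00877) and from 12.43 to 13.86 in BPA-exposed uteri (1.43, adjusted p = 0.00167). In controls RBP7 passed in 3 of the 17 fits without 1 array, those without GD100 control replicate 4, GD165 control replicate 3 or GD100 BPA replicate 1. Of 5 endothelial markers 1 rose, VWF, by 1.3 on the log2 scale in controls (adjusted p = 0.00275). In BPA-exposed uteri 1 of the 5 rose as well. The endothelial scores of the ages overlapped in controls, at -0.53 to 0.03 and -0.15 to 0.67. In BPA-exposed uteri they did not overlap, at -0.23 to -0.12 and -0.05 to 0.44. The part of endothelial cells in the RBP7 values was not tested.

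TTR, the blood protein that partners the plasma retinol carrier, was well above background on 1 of 5 arrays in each GD100 group and on all 7 GD165 arrays. In GD165 controls 1, 3, 5 and 6 its levels were 10.18, 7.2, 4.25 and 9.64, and in BPA replicates 3, 4 and 5 they were 5.89, 8.4 and 8.54. The spread among GD165 uteri was the widest of the named genes, and GD165 control replicate 5 was below GD100 control replicate 5, at 4.73. TTR was higher at GD165 in controls (limma adjusted p = 0.00261) and in BPA-exposed uteri (adjusted p = 0.00691). Since most GD100 arrays were not well above background, the size of the difference was not measured, and no fold is given. Of 12 other settings TTR passed in 8 in controls and in 7 in BPA-exposed uteri. With normexp background correction neither call held (limma adjusted p = 0.0107 and 0.0494). The same was true with error model weights (0.0739 and 0.0952) and with the replicate block (0.0498 and 0.019). The control call was lost without GD165 control replicate 1 (0.0102) or 6 (0.0122). The call in BPA-exposed uteri was lost without GD165 BPA replicate 4 (0.0375) or 5 (0.0359), without any 1 of the 5 GD100 BPA arrays (at most 0.016) or without GD100 control replicate 1 (0.01).

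Among enzymes that oxidise retinol or reduce retinaldehyde, 1 of 14 passed in controls (11.5% of all probes) and 0 of 14 in BPA-exposed uteri (9.68%). At an unadjusted p under 0.05 in limma's test there were 6 of 14 in controls (33.1% of all probes) and 3 of 14 in BPA-exposed uteri (34.5%). The gene that passed was ADH7, an alcohol dehydrogenase that oxidises retinol. Its mean level was 11.99 in GD100 and 13.3 in GD165 controls (log2 difference 1.31, SE 0.32, limma adjusted p = 0.00858). GD165 control replicate 6, with the high squamous score, was highest at 14.32. Without it the difference was 0.97 (adjusted p = 0.0287). The next highest ADH7 level, 13.96, was in GD165 BPA replicate 5, where the squamous score was -0.03. The part of squamous cells in these levels was not tested. ADH7 passed in 6 of 17 fits without 1 array, those without GD100 control replicate 3, GD100 BPA replicate 2 or 5, GD165 control replicate 3 or GD165 BPA replicate 3 or 5.

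None of the 5 other receptors and none of the 5 cofactors on the list passed in either age comparison (0 of 5 each). Of all probes 11.5% passed in controls and 9.68% in BPA-exposed uteri. At an unadjusted p under 0.05 limma gave 2 of the 5 receptors in controls and 3 in BPA-exposed uteri, and 0 and 2 of the cofactors, where 33.1% and 34.5% of all probes had such a p. Of 11 genes known to respond to retinoic acid, 2 passed in controls (11.5% of all probes), in opposite directions, and 1 in BPA-exposed uteri (9.68%). RARRES3, a retinoic acid receptor responder, rose from a mean level of 6.52 to 7.86 in controls (log2 difference 1.34, limma adjusted p = 0.00218) and from 6.21 to 8.19 in BPA-exposed uteri (1.98, adjusted p = 0.000353). MEIS1, a homeodomain partner of HOX proteins, fell from 16.02 to 15.48 in controls (-0.55, adjusted p = 0.00261). In BPA-exposed uteri the mean of MEIS1 was 15.96 at GD100 and 15.55 at GD165, which did not pass. In controls RARRES3 and MEIS1 passed in all 17 fits without 1 array and in 9 of 12 other settings. Neither control call held with the compared groups only, slide as a fixed block or the replicate block (limma adjusted p from 0.0131 to 0.0325).

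**Figure D3:**
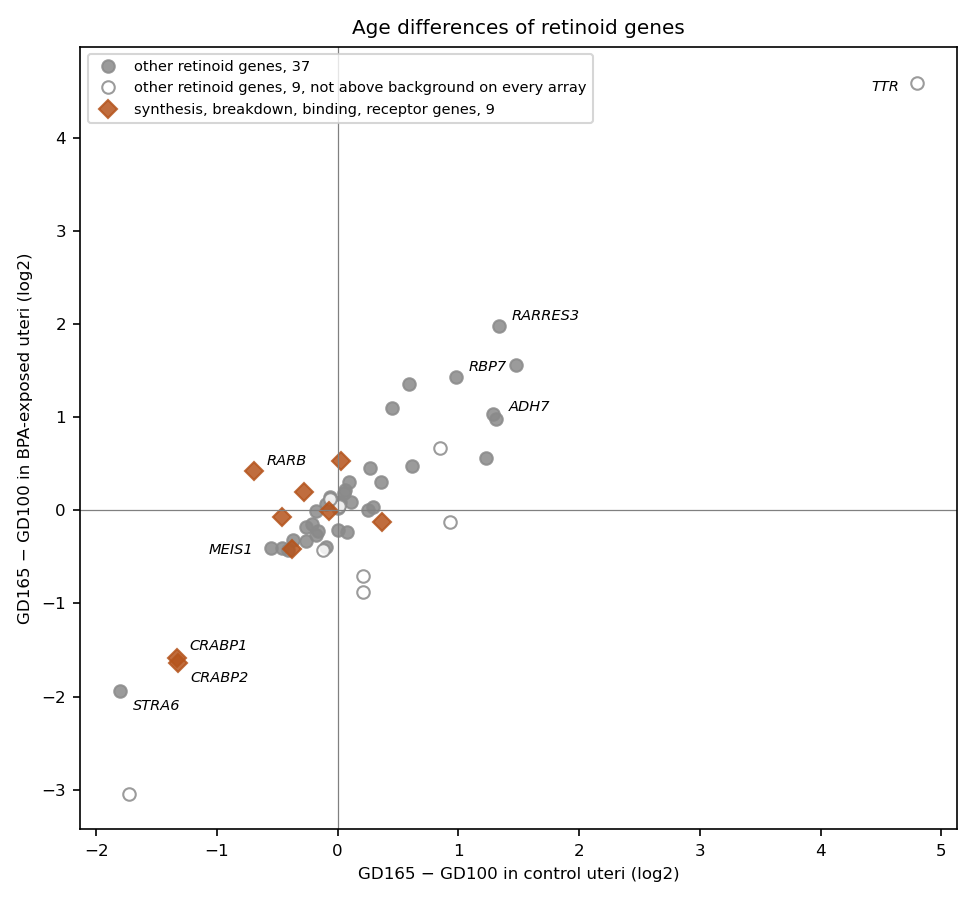
Log2 difference between GD165 and GD100 for 9 genes of retinoic acid synthesis, breakdown, binding and reception (diamonds) and 46 other retinoid genes (circles), in control (horizontal axis) and BPA-exposed uteri (vertical axis), without errors. Open circles are 9 genes not well above background on every array; CRABP1, CRABP2 and STRA6 lie below 0 on both axes, RARB is at -0.69 and 0.42.

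Averaged over both treatments, 11 of the 46 genes passed, 5 higher and 6 lower, with 11.3% of all probes higher and 11.1% lower. Those that had passed in neither age comparison were RBP4, the plasma retinol carrier itself (log2 difference 1.52, limma adjusted p = 0.00122), the receptor RARG (-0.34, adjusted p = 0.00321), the retinol dehydrogenase RDH12 (-0.42, adjusted p = 0.00907) and the nuclear receptor NR2F2 (-0.22, adjusted p = 0.00581). They were named after their values were seen.

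**Figure D4:**
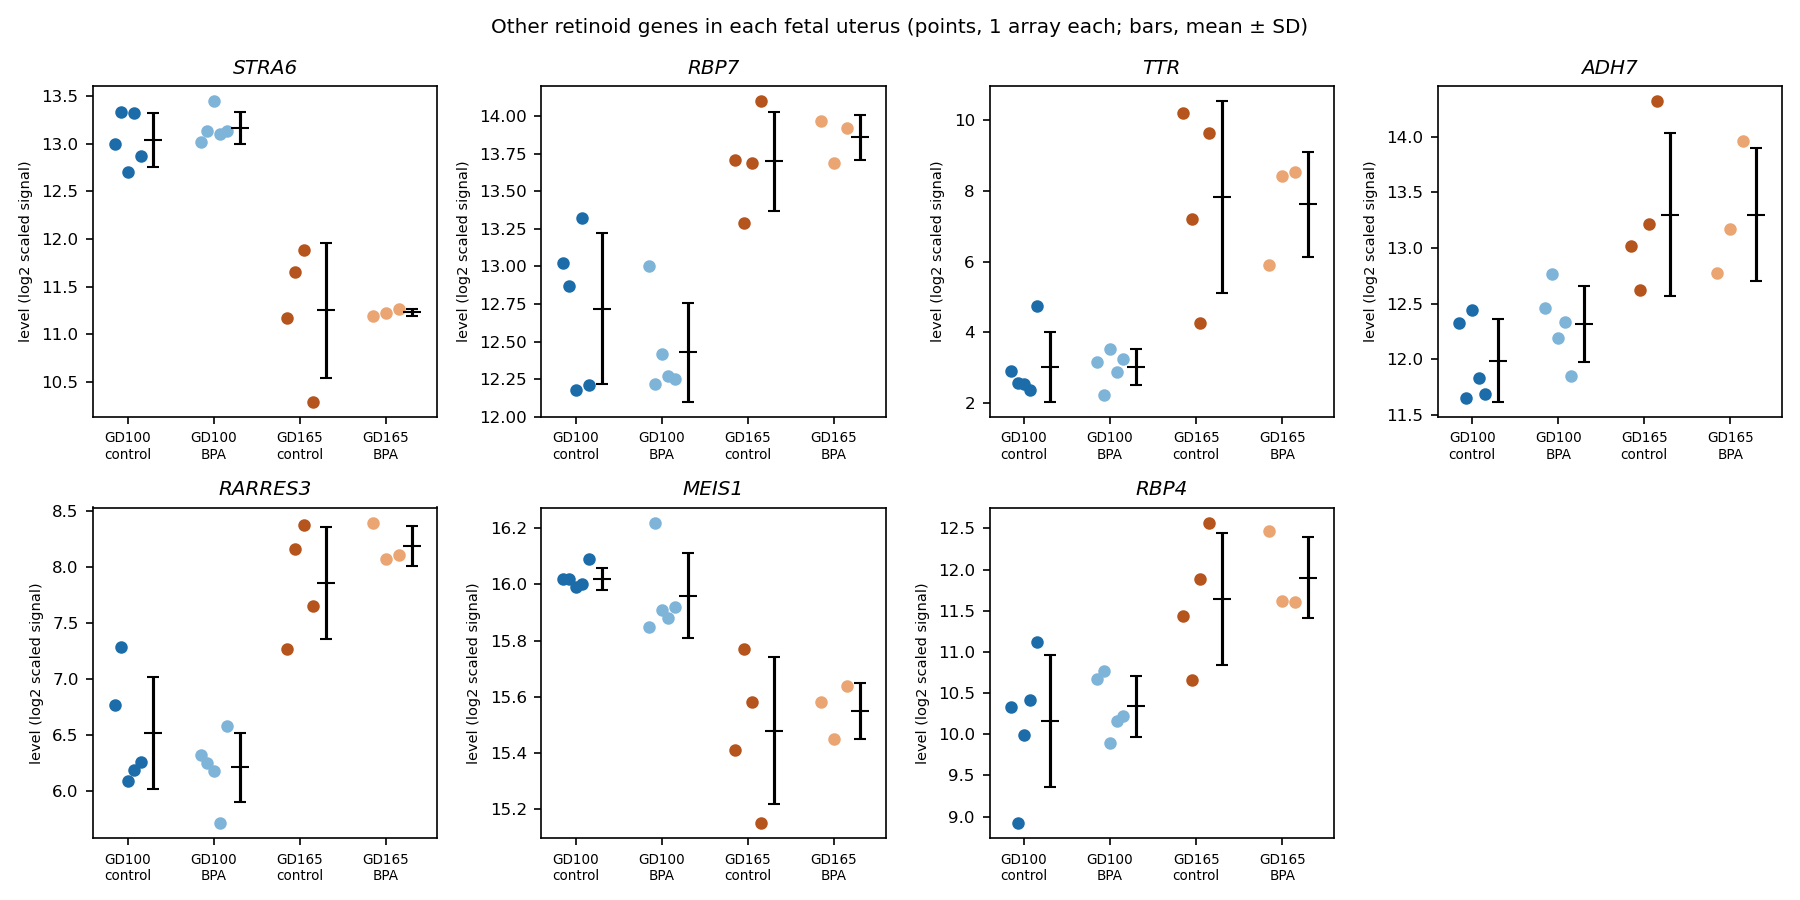
Level (vertical axis, log2 scaled signal, a different range in each panel) of STRA6, RBP7, TTR, ADH7, RARRES3 and MEIS1, which passed a test of age, and of RBP4, in the 4 groups. Each point is 1 fetus and the bars show the mean ± SD; the 7 GD165 levels of STRA6 all lie at 11.88 or below and its 10 GD100 levels at 12.7 or above.

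Cell type markers passed the test of age as well, in 18 of 56 tested in controls (11.5% of all probes) and 11 of 56 in BPA-exposed uteri (9.68%), and none passed for BPA (0 of 56 at each age in limma's test). Of 6 epithelial markers 4 rose in controls, EPCAM, KRT18, MUC1 and CLDN4, and the epithelial score was -0.61 to 0.12 in GD100 controls and 0.41 to 0.67 in GD165 controls. In BPA-exposed uteri 2 of 6 rose, and the score was -0.54 to 0.15 at GD100 and -0.25 to 0.41 at GD165. Of 7 smooth muscle markers 2 rose in controls, with scores of -0.44 to 0.13 at GD100 and 0.07 to 0.65 at GD165. Of 6 stromal markers 1 fell, PDGFRA, by 0.48 on the log2 scale (adjusted p = 0.0069), with scores of -0.2 to 0.23 and -0.57 to 0.08. Summed epithelial signal was 62000 to 100000 in GD100 controls and 142000 to 173000 in GD165 controls, while summed stromal signal was 898000 to 1120000 and 786000 to 1080000. Of 5 leukocyte markers 2 rose in each treatment, and the leukocyte scores of the ages did not overlap, at -1.08 to -0.26 and 0.26 to 0.81 in controls and -0.76 to -0.17 and 0.25 to 1.15 in BPA-exposed uteri. Of 6 skeletal muscle markers 3 rose in controls and 1 in BPA-exposed uteri. The part of such shifts in the levels of CRABP1, CRABP2 and STRA6 was not tested.

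The genes whose pattern over the 17 arrays came nearest to that of CRABP2 were RCOR2, a REST corepressor, and HRK, a BCL2-interacting protein. After centring each gene on its own mean, their levels differed from those of CRABP2 by a root mean square of 0.3 and 0.31 log2 units, where CRABP2 itself varied by 0.83. The search covered 14511 named probes well above background on all arrays. RCOR2 and HRK were picked for their likeness to CRABP2 on these same arrays, so age differences near its own follow from the choice. Their log2 differences with age in controls were -1.36 and -1.27, and in BPA-exposed uteri -1.11 and -1.33.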

How the data were processed

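RNA of 17 fetal uteri, 1 per array, was hybridised with Cy3 to Agilent rhesus arrays on 6 slides. Per the labels and the methods, the authors extracted signals with Agilent Feature Extraction 9.5 (1-colour defaults: background subtraction, detrending and error modelling). Intensities were deposited on a linear scale, not scaled between arrays; the series table equalled the scanner files in 711467 of 711467 values (tolerance 0). Their error-weighted ANOVA was not repeated, but its threshold was kept.

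Each probe was the mean log2 signal of its 2 spots, without control spots and outlier spots (0 of them on the 9 genes), and each array was scaled to its 75th percentile. Array 75th percentiles were 5524 to 7319. Genes were named from the description of a probe; 18757 of 20217 probes had a name, and the brightest probe stood for a gene that had more. limma 3.58.1 in R 4.3.3 (lmFit, eBayes, with 17 arrays in 4 groups) was run on these levels and also on simulated data. Python 3.11.15 made summaries. The number of arrays limits the precision.

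The 9 genes and the lists were chosen with earlier results of these data known. All 9 genes are named; of the 46 other retinoid genes, those past an adjusted p of 0.01 in a comparison, except 1 that is not reported here and stays in the counts; and the 2 nearest genes in pattern to any of the 9 that passed in controls. Alternatives were normexp correction (offset 50), median, quantile or no scaling, a filter on dim probes (17516 kept), outlier spots kept, the compared groups only, a trend with a robust prior, error model weights, slide or replicate as blocks, an adjusted p of 0.05, averaging a gene's probes, and dropping each array in turn.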

Additional observations from a re-analysis of the deposited data

Results flagged for a closer look

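In 48 groups of 4 or 5 arrays, over the 9 genes and the 7 others that passed, 6 had a highest or lowest array whose gap to the next was large for the group's range (Dixon's criterion), a rule by which chance flags about 1 in 20 groups. CYP26A1 was at 6.51 in GD100 BPA replicate 1, where the 4 other arrays of its group were at 5.71 to 5.87; the skeletal muscle score of that array was 1.06, against -2.37 to -1.66 in the others. CYP26B1 was at 10.54 in GD100 BPA replicate 5, against 11.09 to 11.28. RBP7 was at 13.0 in GD100 BPA replicate 1, against 12.22 to 12.42. STRA6 was at 13.45 in GD100 BPA replicate 3, against 13.02 to 13.13, and MEIS1 at 16.22 in GD100 BPA replicate 2, against 15.85 to 15.92. TTR was at 4.73 in GD100 control replicate 5, against 2.36 to 2.9. Groups of 3 arrays were not examined in this way.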

How the results depend on the processing

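For BPA at GD100, BPA at GD165 and the difference between these effects, 0 of the 9 genes and 0 of the 46 other retinoid genes passed in every alternative run. For age in controls (1 of 9 genes) the count was 3 with scaling to the median, with a trend and robust prior and on average over both treatments (chosen after seeing the data), 2 with error model weights, 4 at a threshold of 0.05, and 0 with the compared groups only or slide as a fixed block. It was 0 to 2 without 1 array. For age in BPA-exposed uteri (2 of 9) it was 3 with normexp correction, with a trend and robust prior, with error model weights, at a threshold of 0.05 and on average over both treatments, 1 without scaling, with the compared groups only and with slide as a random block, 0 with slide as a fixed block, and 0 to 2 without 1 array.

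For the 46 other genes the count in controls (7) was 1 with the compared groups only, 2 with slide as a fixed block and 11 averaged over both treatments, and 3 to 8 without 1 array (3 without GD165 control replicate 1 or 6, 4 without GD100 control replicate 1). In BPA-exposed uteri (4) it was 8 at a threshold of 0.05, 2 with slide as a fixed block, 11 averaged over both treatments, and 3 to 4 without 1 array. Over all probes the counts were 958 to 4279 (main 2328) and 512 to 4255 (main 1956). With slide as a fixed block GD165 control replicate 5, alone on its slide, had no weight.

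Same-numbered control and BPA-exposed uteri did not deviate together (r from -0.167 to 0.115 over 7 pairs), so the numbers were not taken as pairs. With the replicate block, the count for age was 0 of 9 in controls and 1 of 9 in BPA-exposed uteri, and 1 of 46 in controls. The comparison of groups alone could not be fitted for the difference between the BPA effects. All of the 9 genes were well above background on every array, and whether a dim signal limited any of their comparisons was not tested.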
